A study of Mus musculus with 32 samples.

Results

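The Gadd45 family consists of 3 genes, *Gadd45a*, *Gadd45b* and *Gadd45g*, which were taken from a table of 51826 mouse genes by gene symbol. The family was chosen by the measured counts of *Gadd45g*, which were near 0 in *Rbpj* mutants, so the members are described without a test wherever *Rbpj* mutants are set against RGd2, and so is *Gadd45g* within *Rbpj*-KO. *Gadd45a* and *Gadd45b* were tested between the culture conditions of *Rbpj*-KO, a contrast the choice did not use. All 3 members passed the filter on low counts, as did 18892 genes in all. GADD45 proteins are small acidic proteins without a known enzymatic activity, which are induced by stress, DNA damage and differentiation signals. They bind the kinase MAP3K4 (MTK1) and thereby activate the p38 and JNK cascades, they bind PCNA, p21 and the CDK1-cyclin B1 complex, and they have been linked to DNA repair and active DNA demethylation. In the vertebrate embryo *Gadd45g* is known as a gene of differentiating neural progenitors, where the Notch pathway restrains it.

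RNA was sequenced from 32 cultures of mouse embryonic stem cells (ESCs) in 11 conditions. All lines derive from RGd2 cells, which carry a destabilized GFP at the *Rex1* locus as a reporter of naive identity and are otherwise unmutated. RGd2, *Etv5*-KO and *Rbpj*-KO cells were expanded in the GSK3 inhibitor CHIR99021 (CH) and LIF, kept in 2i (CH and the MEK inhibitor PD0325901) for 48 h, and collected in 2i or after 16 h in N2B27 medium without inhibitors (N16h). A second set holds RGd2 after 5 passages in 2i (2i-p5), after 2 passages in CH alone (CHp2) and after 72 h in N2B27 (N72h). It also holds ER-dKO cells, which lack *Etv5* and *Rbpj*, after 5 passages in CH (CHp5). ETR-tKO cells, which lack *Etv5*, *Tcf3* (symbol *Tcf7l1*) and *Rbpj*, were collected after 5 passages in N2B27 (Np5). The knockout clones of this set had also been expanded in CH and LIF before these passages. Each condition has 3 libraries apart from *Etv5*-KO N16h with 2. Mutant libraries came from clonal lines made with a pair of guide RNAs against different exons, and 1 RGd2 library per condition came from a clonal line. The *Rbpj*-KO lines c28, c33 and c36 were used in both 2i and N16h. Libraries are named below by the number in their label.

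In the GRCm38 genome, *Gadd45a* (ENSMUSG00000036390.8) lies on the minus strand at chr6:67035096-67037457, *Gadd45b* (ENSMUSG00000015312.9) on the plus strand at chr10:80930073-80932204 and *Gadd45g* (ENSMUSG00000021453.2) on the plus strand at chr13:51846678-51848468. An antisense transcript, *E230016M11Rik*, overlaps *Gadd45a* on the other strand, and the fragments were counted by strand. The coding sequences share 62.8% of aligned bases between *Gadd45a* and *Gadd45b*, 67.5% between *Gadd45a* and *Gadd45g*, and 69.2% between *Gadd45b* and *Gadd45g*. The longest identical run between any pair was 17 bases, found in *Gadd45a* and *Gadd45g*.

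The promoters are shown because the members moved apart from each other in these cultures. The RefSeq windows (GRCm38.p6, from 250 bases before to 50 after the start) were searched on both strands for 8 motifs. The core that RBPJ binds was searched as TGGGAA. Among the sites that HES and related repressors can bind, the E-box was searched as CACGTG, the N-box with its free base as CACNAG, and the class C site of the same proteins as CACGCG. The core of the ETS family, to which ETV5 belongs, was searched as CCGGAA, and the core of the TCF/LEF family, to which the product of *Tcf7l1* belongs, as CTTTGAA. The TATA box was searched as TATAAA, and the p53 half-site was searched too. None of the motifs spelled out here contains another. The sequences below are written 5′ to 3′ on the strand of the gene, and capitals mark the matches. The promoter of *Gadd45a* is shown for chr6:67037458-67037657, minus strand, of *Gadd45b* for chr10:80929841-80930072, plus strand, and of *Gadd45g* for chr13:51846425-51846674, plus strand.
Gadd45a: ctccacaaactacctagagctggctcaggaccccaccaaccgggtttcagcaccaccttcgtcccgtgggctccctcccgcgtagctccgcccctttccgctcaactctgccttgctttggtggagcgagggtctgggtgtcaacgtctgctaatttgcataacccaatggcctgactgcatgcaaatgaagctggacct
Gadd45b: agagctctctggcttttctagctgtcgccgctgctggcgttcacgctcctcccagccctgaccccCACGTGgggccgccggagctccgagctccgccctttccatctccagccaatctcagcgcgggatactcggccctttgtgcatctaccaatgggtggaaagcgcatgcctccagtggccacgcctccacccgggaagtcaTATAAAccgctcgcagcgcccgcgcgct
Gadd45g: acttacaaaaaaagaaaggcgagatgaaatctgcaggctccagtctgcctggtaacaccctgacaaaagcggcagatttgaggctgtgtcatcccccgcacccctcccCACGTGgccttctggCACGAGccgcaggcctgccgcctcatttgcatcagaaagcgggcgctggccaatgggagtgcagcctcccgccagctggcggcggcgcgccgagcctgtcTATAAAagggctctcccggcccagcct

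The upstream stretch of *Gadd45a* held no match. Closer to its RefSeq start, the site at chr6:67037425-67037447 (minus strand) held a p53 half-site, 40 bases before the start, and an ETS core, both in capitals.
Gadd45a site: GGGCTAGCCCcatatctCCGGAA
*Gadd45b* held an E-box 185 bases and a TATA box 46 bases before the start. *Gadd45g* held an E-box at 142, an N-box at 127 and a TATA box at 27 bases before the start. A second N-box, on the other strand, began 11 bases after the start. The RBPJ core was found in *Gadd45g* alone among the members, after the start, in the site at chr13:51846701-51846724 (plus strand).
Gadd45g site: atcggactcTGGGAAtctttacct
The class C site and the TCF/LEF core matched in 0 of the members. Of 32851 RefSeq windows of the same length, 25.56% held the RBPJ core, 42.48% the N-box, 7.15% the E-box, 9.269% the class C site, 14.9% the ETS core, 5.135% the TCF/LEF core, 13.62% the TATA box and 8.356% the p53 half-site. These matches describe the letters in the windows, and binding was not measured in these data.

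Libraries had between 5986857 and 71439411 counts on genes, the lowest being RGd2 2i replicate 33, which came from the clonal RGd2 line. This library stood apart from the other RGd2 2i libraries, with a chi-square per gene of 43.3 and 44.3 against them and of 8.43 between those. Log2 fold changes of the members that rest on RGd2 2i are also given without it. Family shares, *Hes1*, the markers and the gene lists are given only with it. Counts were scaled by the ERCC spike-ins, synthetic RNAs added in equal amount, and are given as normalized counts. *Rbpj* had a mean normalized count of 1097 in *Rbpj*-KO against 4469 in RGd2 in 2i, and of 2697 against 12574 at N16h, and in both conditions the groups did not overlap. In the ER-dKO libraries *Rbpj* had 1138, 1307 and 3489, the last in the library labelled ER-dKO replicate 12, which lay above all 3 RGd2 2i-p5 libraries. The remaining counts can come from exons outside the deletion, so *Rbpj* counts per gene do not decide whether a library lacks RBPJ. *Etv5* was lower in *Etv5*-KO, ER-dKO and ETR-tKO than in the matching RGd2 libraries, with log2 fold changes from −2.79 to −2.04, and *Tcf7l1* was lower in ETR-tKO by a log2 fold change of −2.66, without overlap. Defining ESC markers (*Pou5f1*, *Sox2*, *Nanog*, *Zfp42*, *Esrrb*, *Klf4* and *Tfcp2l1*) were detected in every condition. These genes are counted as the naive markers below. *Pou5f1* and *Sox2* among them are general pluripotency genes and not specific to naive cells.

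*Gadd45a* was highest in RGd2 N16h, with a mean normalized count of 1643 ± 98.7 (SD, n = 3), and lowest in *Etv5*-KO 2i, with 179.8 ± 9.25 (SD, n = 3). The 4 highest conditions were RGd2 N16h, *Etv5*-KO N16h with 1467 ± 111 (SD, n = 2), ETR-tKO Np5 with 1375 ± 154 (SD, n = 3) and *Rbpj*-KO N16h with 1248 ± 77.2 (SD, n = 3), and each of them overlapped the next. ER-dKO CHp5 with 879 ± 6.56 (SD, n = 3) and RGd2 CHp2 with 838 ± 90.1 (SD, n = 3) overlapped as well, below those 4. RGd2 N72h with 421 ± 33.1, RGd2 2i-p5 with 348 ± 25.8 and *Rbpj*-KO 2i with 334 ± 23.1 (SD, n = 3 each) came next, of which the last 2 overlapped. RGd2 2i, with 228 ± 45.5 (SD, n = 3), overlapped *Etv5*-KO 2i. The conditions at 16 h without inhibitors were therefore at the top and those in 2i at the bottom, in each genotype.

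*Gadd45b* had another order. It was highest in *Rbpj*-KO 2i, with 781 ± 73.4 (SD, n = 3), followed by RGd2 2i with 653 ± 61.4 (SD, n = 3) and *Etv5*-KO 2i with 545 ± 18.7 (SD, n = 3), which did not overlap. From *Etv5*-KO 2i downwards, *Rbpj*-KO N16h with 535 ± 48.3 (SD, n = 3), RGd2 N72h with 479 ± 69.4 (SD, n = 3), RGd2 CHp2 with 435 ± 96.4 (SD, n = 3), RGd2 2i-p5 with 424 ± 30.0 (SD, n = 3) and *Etv5*-KO N16h with 417 ± 4.197 (SD, n = 2) each overlapped their neighbour. ETR-tKO Np5 with 330.1 ± 17.7, ER-dKO CHp5 with 254 ± 28.0 and RGd2 N16h with 156 ± 9.58 (SD, n = 3 each) were lowest and did not overlap. RGd2 N16h, the top condition of *Gadd45a*, was the bottom condition of *Gadd45b*.

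*Gadd45g* was highest in RGd2 N16h, with 766 ± 149 (SD, n = 3), and overlapped *Etv5*-KO N16h with 526 ± 158 (SD, n = 2). RGd2 N72h with 263 ± 11.7 (SD, n = 3) lay below these and above RGd2 2i with 162 ± 59.7 (SD, n = 3). RGd2 2i, RGd2 CHp2 with 109 ± 33.1 (SD, n = 3) and *Etv5*-KO 2i with 91.1 ± 16.2 (SD, n = 3) overlapped in turn, and RGd2 2i-p5 with 41.5 ± 6.51 (SD, n = 3) was the lowest condition with intact *Rbpj*. The 4 *Rbpj*-mutant conditions came last, with means from 1.44 in ER-dKO CHp5 to 10.9 in ETR-tKO Np5. Condition means thus ran from 1.44 to 766 for *Gadd45g*, from 179.8 to 1643 for *Gadd45a* and from 156 to 781 for *Gadd45b*.

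**Figure D1:**
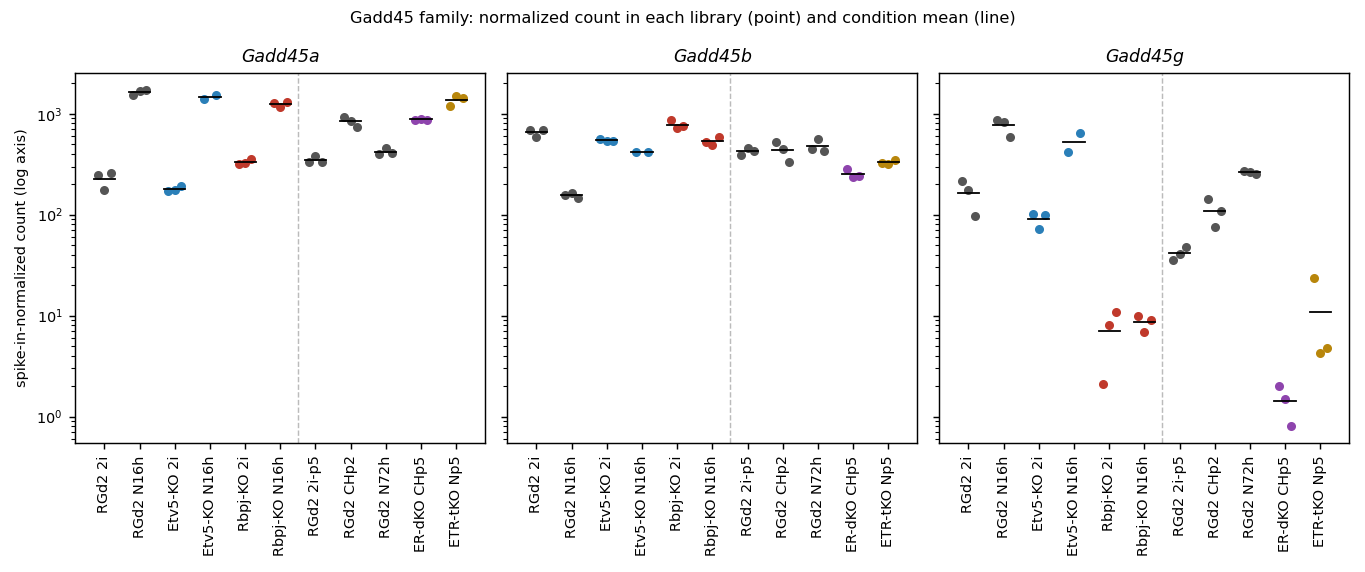
Normalized counts of *Gadd45a*, *Gadd45b* and *Gadd45g* on a log axis in the 11 conditions, with a point for each library and a line for the condition mean. A dashed line in each panel parts the 2 sets of cultures. *Gadd45g* in the *Rbpj*-mutant conditions has means from 1.44 to 10.9, below every condition with intact *Rbpj*.

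Levels can be compared between members only per length, for which FPKM (fragments per kilobase of exon, scaled to the library size) were used. In RGd2 2i, *Gadd45b* made up 60.7% ± 4.02 (SD, n = 3) of the summed FPKM of the family, *Gadd45a* 19.0% ± 3.06 and *Gadd45g* 20.3% ± 6.69 (SD, n = 3 each). At N16h the sum was higher, 69.0 ± 3.11 FPKM against 24.2 ± 2.67 FPKM in 2i (SD, n = 3 each), and it was made up of *Gadd45a* with 55.6% ± 5.73, *Gadd45g* with 38.6% ± 5.73 and *Gadd45b* with 5.83% ± 0.00966 (SD, n = 3 each). In *Rbpj*-KO the sum was 25.2 ± 0.675 FPKM in 2i and 39.95 ± 2.12 FPKM at N16h (SD, n = 3 each), with *Gadd45g* at 0.886% and 0.695%. *Gadd45a* made up 75.6% ± 2.11 in ER-dKO CHp5 and 78.1% ± 2.69 in ETR-tKO Np5 (SD, n = 3 each), the largest shares of this member among the 11 conditions.

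**Figure D2:**
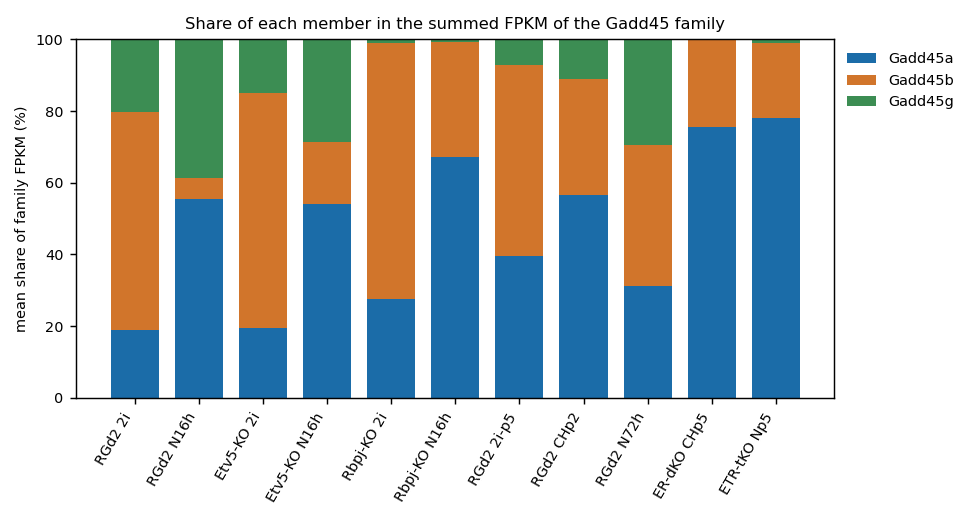
Mean share of each member in the summed FPKM of the family, in percent, as stacked bars for the 11 conditions. *Gadd45b* takes 60.7% in RGd2 2i and 5.83% in RGd2 N16h, and *Gadd45g* takes under 1% in all 4 *Rbpj*-mutant conditions.

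The first comparison asked how RGd2 cells respond to withdrawal of 2i. In RGd2, *Gadd45a* and *Gadd45g* rose within 16 h and *Gadd45b* fell. *Gadd45a*, which in many cells is induced by p53, had normalized counts of 249.9, 176 and 258 in 2i and of 1531, 1683 and 1716 at N16h. Its level changed by 2.89 on the log2 scale (standard error, SE, 0.13, edgeR quasi-likelihood adjusted p = 9.23e-21 after Benjamini and Hochberg). *Gadd45g* had 214, 176 and 96.9 in 2i and 869.7, 833 and 595 at N16h, so that every library at N16h exceeded every library in 2i. Its log2 fold change was 2.15 (SE 0.25, edgeR adjusted p = 4.31e-09). *Gadd45b*, which is known to be induced by TGF-β and NF-κB signaling, had 695, 583 and 682 in 2i and 158, 164 and 145 at N16h, again without overlap. Its log2 fold change was −2.06 (SE 0.14, edgeR adjusted p = 1.94e-15). The background was high: 46.0% of the 11748 genes that passed the FPKM minimum of 1 were called, with 8.63% higher and 37.4% lower, and replicates did not overlap for 42.1%. The median log2 fold change of all genes was −0.23, relative to which the members changed by 3.12, −1.83 and 2.38 in the order *Gadd45a*, *Gadd45b* and *Gadd45g*. Without RGd2 2i replicate 33 the log2 fold changes were 2.95, −2.03 and 1.98 in that order, and all passed. With TMM normalization of the gene counts the share of higher genes among those called moved from 18.8% to 44.5%, and the 3 members kept direction and call. Markers of formative cells moved as well: 5 of 5 were called higher, and their summed FPKM was 42.3 to 48.8 in 2i and 125 to 165 at N16h with no marker at 0, while 5 of 7 naive markers were called lower. Their part in the change of the members was not tested, and in bulk samples fewer cells of a type and less RNA per cell cannot be told apart.

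The next comparisons set other cultures of RGd2 against 2i-p5 and share that control. *Gadd45g* was higher at N72h and in CHp2 than in 2i-p5, where its normalized counts were 35.3, 40.8 and 48.3. At N72h it had 274, 264 and 250.4, a log2 fold change of 2.62 (SE 0.30, edgeR adjusted p = 9.48e-10). In CHp2 it had 143, 76.4 and 108, a log2 fold change of 1.32 (SE 0.32, edgeR adjusted p = 0.00109). Neither group overlapped 2i-p5. *Gadd45a* had 335, 377 and 331 in 2i-p5 and 925, 844 and 745 in CHp2, a log2 fold change of 1.27 (SE 0.12, edgeR adjusted p = 5.63e-11). At N72h *Gadd45a* had 399, 459 and 405, all above 2i-p5, but the log2 fold change of 0.27 did not pass (SE 0.12, edgeR adjusted p = 0.0697). *Gadd45b* did not pass in either comparison, with log2 fold changes of 0.17 at N72h (SE 0.13, edgeR adjusted p = 0.319) and 0.03 in CHp2 (SE 0.14, edgeR adjusted p = 0.892), and the sign in CHp2 turned negative with TMM (−0.16). Of the genes past the FPKM minimum, 57.1% were called at N72h (34.2% higher, 22.9% lower) and 42.2% in CHp2 (28.6% higher, 13.6% lower), and replicates did not overlap for 66.2% and 54.8%. The median log2 fold change of all genes was 0.11 at N72h and 0.17 in CHp2, and TMM moved the share of higher genes among those called from 59.9% to 46.6% and from 67.8% to 43.3%. At N72h 4 of 5 formative markers were called higher, with summed FPKM of 30.6 to 33.9 in 2i-p5 and 506 to 521 at N72h. In CHp2 the mesendoderm markers summed to 69.9 to 73.4 FPKM against 8.84 to 10.1 FPKM, with none at 0 and 1 of the 2 past the FPKM minimum called higher. In CHp2 7 of 7 naive markers were called lower, with 611 to 631 FPKM against 1165 to 1223 FPKM, and 5 of 5 formative markers higher, with 125 to 146 FPKM, and TMM gave the same counts. *Nes*, a neural marker, had 3.11 to 3.67 FPKM in 2i-p5, 9.31 to 10.2 FPKM in CHp2 and 43.8 to 49.7 FPKM at N72h, and *Pax6* and *Sox1* stayed under 1 FPKM in these cultures. The part of these markers was not tested.

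RGd2 cells in the 2i cultures differed in the level of the family. *Gadd45g* was lower in 2i-p5 than in 2i by a log2 fold change of −2.02 (SE 0.31, edgeR adjusted p = 4.16e-06), and the 6 libraries did not overlap. *Gadd45a* was higher by 0.65 (SE 0.13, edgeR adjusted p = 0.000248). *Gadd45b* was lower by a log2 fold change of −0.61 (SE 0.13, edgeR adjusted p = 0.000508), a call that was lost with TMM (−0.27, edgeR adjusted p = 0.0891). Without RGd2 2i replicate 33 the values were −2.19, 0.72 and −0.59 for *Gadd45g*, *Gadd45a* and *Gadd45b*, and all passed. The median log2 fold change of all genes was −0.37, 52.3% of genes were called, 2.89% as higher and 49.4% as lower, replicates did not overlap for 40.2%, and with TMM the share of higher genes among those called moved from 5.53% to 52.8%. Of 7 naive markers 5 were called lower (with TMM, 2), with summed FPKM of 1165 to 1223 against 1237 to 1355, and their part was not tested. Passages in 2i and the earlier expansion in CH and LIF cannot be told apart in this comparison.

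ETV5 is an ETS factor downstream of ERK, and the next comparisons asked how the family behaved without it. At N16h *Gadd45b* was higher in *Etv5*-KO than in RGd2, with 414 and 420.4 against 158, 164 and 145. The log2 fold change was 1.42 (SE 0.15, edgeR adjusted p = 9.73e-10), or 1.18 relative to the median of all genes of 0.24. *Gadd45a* had 1389 and 1545 in *Etv5*-KO N16h, within reach of the RGd2 libraries, and a log2 fold change of −0.16 (SE 0.13, edgeR adjusted p = 0.375). *Gadd45g* had 414 and 637 and a log2 fold change of −0.54 (SE 0.26, edgeR adjusted p = 0.124). With TMM both of these passed, at −0.40 for *Gadd45a* (adjusted p = 0.00485, edgeR) and −0.78 for *Gadd45g* (adjusted p = 0.0181, edgeR). Of all genes past the FPKM minimum, 32.5% were called, 29.3% as higher and 3.24% as lower, replicates did not overlap for 64.6%, and TMM moved the share of higher genes among those called from 90% to 57.5%. All 7 naive markers were called higher (with TMM, 6), with summed FPKM of 1282 to 1373 against 879 to 903 in RGd2, and 5 of 5 formative markers were called lower, with 73.8 to 82.2 FPKM against 125 to 165 FPKM, and their part in the level of *Gadd45b* was not tested.

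In 2i, *Gadd45g* was lower in *Etv5*-KO, with 102, 72.6 and 98.4 against 214, 176 and 96.9 in RGd2. The log2 fold change was −0.91 (SE 0.26, edgeR adjusted p = 0.00753), although the groups overlapped through RGd2 replicate 33. The call was lost without RGd2 replicate 31 (−0.70), without *Etv5*-KO replicate 26 (−0.78) and with DESeq2 (−0.86, DESeq2 adjusted p = 0.0595). *Gadd45a* and *Gadd45b* did not pass in 2i, with log2 fold changes of −0.30 (SE 0.13, edgeR adjusted p = 0.0855) and −0.26 (SE 0.13, edgeR adjusted p = 0.141). Without RGd2 replicate 33 *Gadd45g* was at −1.09 (edgeR adjusted p = 0.000744), and *Gadd45a* and *Gadd45b* at −0.24 and −0.23 did not pass. *Gadd45a* passed without RGd2 replicate 32 (−0.49, edgeR adjusted p = 0.00746). In this comparison 34.0% of genes were called, 6.14% as higher and 27.9% as lower, replicates did not overlap for 28.2%, the median of all genes was −0.23, and TMM moved the share of higher genes among those called from 18% to 55.4%.

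The response of *Etv5*-KO cells to 2i withdrawal was then set against that of RGd2. Within *Etv5*-KO, *Gadd45a* rose from 173, 176 and 190.5 in 2i to 1389 and 1545 at N16h, a log2 fold change of 3.03 (SE 0.13, edgeR adjusted p = 3.15e-21). *Gadd45g* rose by 2.52 on the log2 scale (SE 0.27, edgeR adjusted p = 5.56e-10). *Gadd45b* went from 566, 534 and 534 to 414 and 420.4, a log2 fold change of −0.38 (SE 0.14, edgeR adjusted p = 0.0361). The call for *Gadd45b* was lost with the clonal line as replicate block (−0.36, edgeR adjusted p = 0.158) and without any of the 5 libraries (−0.40 to −0.36). Here 40.7% of genes were called, 31.3% as higher and 9.47% as lower, replicates did not overlap for 64.3%, the median of all genes was 0.24, and TMM moved the share of higher genes among those called from 76.8% to 44.5%. The difference between the responses, *Etv5*-KO less RGd2, was 1.67 for *Gadd45b* (SE 0.20, edgeR adjusted p = 3.67e-08), or 1.20 relative to the median of all genes of 0.47. It was 0.14 for *Gadd45a* (SE 0.18, edgeR adjusted p = 0.586) and 0.37 for *Gadd45g* (SE 0.36, edgeR adjusted p = 0.454), and both turned negative with TMM (−0.36 and −0.11). Without RGd2 2i replicate 33 the differences were 1.64 for *Gadd45b*, 0.07 for *Gadd45a* and 0.54 for *Gadd45g*, of which that of *Gadd45b* passed. For the difference 37.3% of genes were called, 36.7% as higher and 0.531% as lower, and TMM moved the share of higher genes among those called from 98.6% to 65.1%.

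*Rbpj*-KO cells also responded to 2i withdrawal. *Gadd45a* rose from 316, 326 and 359.8 in 2i to 1291, 1159 and 1294 at N16h, a log2 fold change of 1.90 (SE 0.12, edgeR adjusted p = 9.47e-16). *Gadd45b* fell from 863, 720.0 and 762 to 529.8, 489 and 585, a log2 fold change of −0.54 (SE 0.13, edgeR adjusted p = 0.00156). Neither gene overlapped between the conditions, and 27.9% of genes were called, 11.6% as higher and 16.3% as lower, while replicates did not overlap for 47.6%. The same changes in RGd2 were 2.89 and −2.06, and whether the responses differ between the genotypes was not tested, since that difference sets *Rbpj* mutants against RGd2. *Gadd45g* had 2.10, 8.06 and 10.9 in *Rbpj*-KO 2i and 9.92, 6.83 and 9.09 at N16h, so that the groups overlapped, with a log2 fold change of 0.10 (SE 0.59).

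The values by which the family was chosen are those of *Gadd45g* in *Rbpj* mutants. RBPJ is the DNA-binding partner of the Notch intracellular domain and recruits corepressors in its absence. In *Rbpj*-KO 2i the 3 libraries held 1, 9 and 13 fragments of *Gadd45g*, 23 in all (exact Poisson interval at 95%, 14.6 to 34.5, counting error only). Against RGd2 2i the log2 fold change was −4.38 (SE 0.38), a 20.9-fold lower level, and without RGd2 2i replicate 33 it was −4.56. At N16h the libraries held 10, 5 and 7 fragments, 22 in all (13.8 to 33.3), and the log2 fold change against RGd2 was −6.44 (SE 0.36), an 86.6-fold lower level. The replicates did not overlap in either condition. Replicates did not overlap for 15.6% of all genes past the FPKM minimum in 2i and for 48.3% at N16h.

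The other members differed from *Gadd45g* in the same libraries. *Gadd45b* at N16h had 529.8, 489 and 585 in *Rbpj*-KO against 158, 164 and 145 in RGd2, a log2 fold change of 1.77 (SE 0.14), without overlap. In 2i *Gadd45b* had 863, 720.0 and 762 against 695, 583 and 682, with a log2 fold change of 0.26 (SE 0.13) and no overlap. Without RGd2 2i replicate 33 it was 0.29. *Gadd45a* was above RGd2 in 2i, with a log2 fold change of 0.60 (SE 0.13, and 0.66 without that library), and below it at N16h, with −0.40 (SE 0.11), without overlap in both. The median log2 fold change of all genes was −0.06 in 2i and 0.15 at N16h. *Etv5*-KO N16h and *Rbpj*-KO N16h share the RGd2 control, and their log2 fold changes for *Gadd45b* were 1.42 and 1.77. Of all genes, 18.8% were called higher and 3.41% lower in *Rbpj*-KO N16h against RGd2 N16h. There 6 of 7 naive markers were called higher (with TMM, 4), with summed FPKM of 1093 to 1169.8, and 5 of 5 formative markers lower (with TMM, 5), with 59.6 to 63.7 FPKM. *Nes* had 11.6 to 13.3 FPKM in *Rbpj*-KO 2i against 1.38 to 3.26 FPKM in RGd2 2i, and 15.5 to 16.7 FPKM against 1.17 to 1.64 FPKM at N16h. At N16h *Pax6* had 2.31 to 2.497 FPKM in *Rbpj*-KO and 0.855 to 1.75 FPKM in RGd2, *Sox1* had 1.51 to 2.47 FPKM and 1.01 to 1.24 FPKM, and *Zic1* was at 0 in the *Rbpj*-KO libraries. The part of these markers was not tested.

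In ER-dKO CHp5 the libraries held 3, 4 and 1 fragments of *Gadd45g*, 8 in all (exact Poisson interval at 95%, 3.45 to 15.8, counting error only). The normalized counts of 2.01, 1.496 and 0.810 were below all RGd2 2i-p5 libraries, with a log2 fold change of −4.74 (SE 0.53). Without the library labelled ER-dKO replicate 12, in which *Rbpj* was not lower than in RGd2, it was −4.57. *Gadd45a* had 875, 887 and 876 and a log2 fold change of 1.34 (SE 0.12), and *Gadd45b* had 286, 236 and 239.7 and a log2 fold change of −0.74 (SE 0.13), both without overlap. Without the library labelled replicate 12 these were 1.34 and −0.71. The median log2 fold change of all genes was 0.20, and 64.4% of genes did not overlap. Of 7 naive markers 5 were called higher (with TMM, 2), where 33.9% of all genes were, with a median of 0.28 against 0.21 for the genes past the FPKM minimum and summed FPKM of 1247 to 1271 against 1165 to 1223 in 2i-p5, and their part was not tested.

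In ETR-tKO Np5 the library numbered 13, which came from another parental clone than 14 and 15, stood apart. *Gadd45g* had 23.7 in replicate 13 and 4.30 and 4.78 in replicates 14 and 15, from 39, 4 and 6 fragments. The log2 fold change against RGd2 2i-p5 was −1.78 (SE 0.39) with all libraries and −3.19 (SE 0.47) without replicate 13, and all 3 libraries lay below 2i-p5. In replicate 13 the normalized count of *Rbpj* was 1559, against 2281 and 2348 in the other two, that of *Tcf7l1* was 29.1, against 120.4 and 107, that of *Etv5* was 2547, against 1112 and 1843, and that of *Hes1* was 452, against 577 and 534. The part of the clone in the level of *Gadd45g* was not tested. *Gadd45a* had 1203, 1498 and 1424 and a log2 fold change of 1.98 (SE 0.12), and *Gadd45b* had 323, 317 and 350.3 and a log2 fold change of −0.36 (SE 0.13), with 59.1% of all genes not overlapping and a median of 0.27. Both mutants share the control 2i-p5 and differ from it in culture as well as in genotype. In these comparisons culture and genotype cannot be told apart. In ETR-tKO 5 of 7 naive markers were called higher, where 37.7% of all genes were, with 1274 to 1361 FPKM (with TMM, 2 higher and 1 lower). Of the 4 formative markers past the FPKM minimum 3 were called higher and 1 lower, with 59.1 to 88.0 FPKM against 30.6 to 33.9 FPKM (with TMM, 3 and 1). *Nes* had 8.72 to 9.301 FPKM against 3.11 to 3.67 FPKM. The part of these markers was not tested. RGd2 CHp2 shares CH alone with ER-dKO CHp5 but had fewer passages. In RGd2 CHp2 *Gadd45g* had 143, 76.4 and 108, *Gadd45a* 925, 844 and 745, and *Gadd45b* 521, 452 and 331. *Gadd45a* overlapped ER-dKO CHp5, with means of 838 in RGd2 CHp2 and 879 in ER-dKO CHp5. *Gadd45g* and *Gadd45b* were lower in ER-dKO CHp5 without overlap, with means of 1.44 and 254. The difference between these cultures was not tested.

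**Figure D3:**
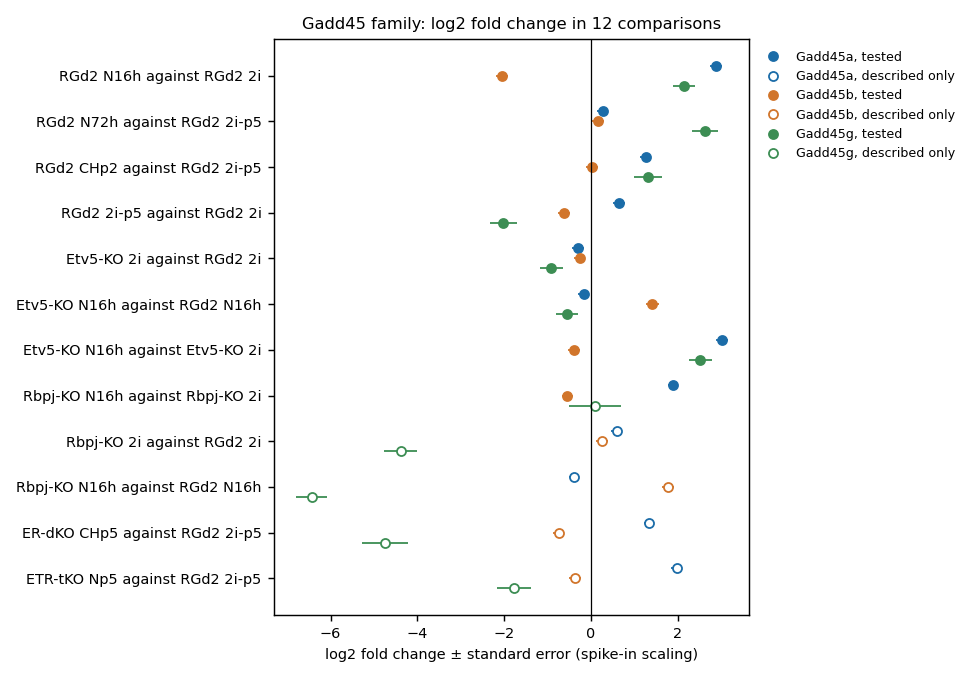
Log2 fold change with its standard error (spike-in scaling) of the 3 members in 12 comparisons. Filled points were tested and open points are described without a test. *Gadd45g* ranges from −6.44 in *Rbpj*-KO N16h against RGd2 N16h to 2.62 in RGd2 N72h against RGd2 2i-p5, and *Gadd45b* is at −2.06 in RGd2 and −0.54 in *Rbpj*-KO after withdrawal of 2i.

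*Hes1* encodes a transcriptional repressor and is a common target of Notch signaling. It was compared with *Gadd45g* because HES1 is known to act on this gene. *Hes1* had 482, 359.8 and 646 in RGd2 2i and 78.4, 70.0 and 94.1 at N16h, a log2 fold change of −2.58 (SE 0.16, edgeR adjusted p = 2.06e-16). In *Rbpj*-KO N16h it had 625, 590.3 and 588, higher than in RGd2 N16h by a log2 fold change of 2.91 (SE 0.16, edgeR adjusted p = 2.65e-17). In *Rbpj*-KO 2i it was higher by 0.96 (SE 0.14, edgeR adjusted p = 5.10e-06). Among the 7 conditions with intact *Rbpj*, the Pearson correlation of the mean log2 levels of *Gadd45g* and *Hes1* was −0.819 and Spearman's rho was −0.643. Without the 2 conditions farthest from the median of *Hes1*, which were both N16h conditions, r was 0.0277, so the relation rests on these. The points share libraries, scaling and culture, and the 4 *Rbpj*-mutant conditions form a cluster of their own that is too small for a correlation.

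**Figure D4:**
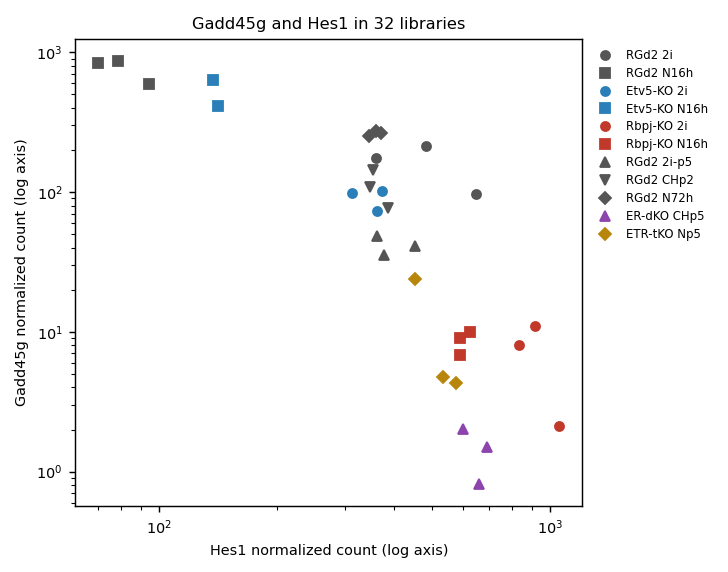
Normalized count of *Gadd45g* against that of *Hes1* in the 32 libraries, both on log axes, with color and symbol for the condition. The 3 RGd2 N16h libraries have *Hes1* from 70.0 to 94.1 and *Gadd45g* from 595 to 869.7, and the *Rbpj*-mutant libraries have *Gadd45g* of 23.7 or less, with *Hes1* from 452 to 1058, a range that RGd2 2i and 2i-p5 libraries partly share.

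The patterns of the members over the 11 conditions were not alike, with Pearson correlations of the mean log2 levels of 0.00559 between *Gadd45a* and *Gadd45g*, −0.658 between *Gadd45a* and *Gadd45b*, and −0.174 between *Gadd45b* and *Gadd45g*. The values with *Gadd45g* include the 4 *Rbpj*-mutant conditions by which the family was chosen, and were not computed without them. For both *Gadd45a* and *Gadd45g* the highest condition was RGd2 N16h, followed by *Etv5*-KO N16h. Each member was compared with the other genes in a set of 13325, which includes the member itself. The pattern of *Gadd45a* was most like that of *Phf21a* (r = 0.966), which encodes a histone H3 reader of an LSD1 complex. Next came *Ccdc58* (0.948), *Gm10478* (0.937), *Wdr55* (0.936) and *Rad9b* (0.93). *Phf21a* was first by Spearman's rho and over the 32 libraries too. Its mean normalized count was 752 in RGd2 2i and 2522 at N16h. The others held less well, since over the libraries *Rad9b* ranked 3, *Wdr55* 103, *Ccdc58* 336 and *Gm10478* 634. *Gadd45b* was most like *M6pr* (0.883), *Tmem101* (0.875), *Osbpl7* (0.871), *Spryd3* (0.855) and *Fam3a* (0.851), of which *Osbpl7* was first by Spearman's rho. Over the libraries *Osbpl7* ranked 5, *Tmem101* 21, *Fam3a* 31, *Spryd3* 68 and *M6pr* 126. *Gadd45g* was most like *Cdkn1c* (0.933), which encodes the CDK inhibitor p57, *Ccno* (0.904), *Mmp23* (0.902), *Prr19* and *Nespas*. Over the libraries *Ccno* ranked 1, *Prr19* 2, *Mmp23* 16, *Cdkn1c* 21 and *Nespas* 201. *Cdkn1c* had means of 331 in RGd2 2i, 828 in RGd2 N16h, 32.8 in *Rbpj*-KO 2i and 59.1 in *Rbpj*-KO N16h. These correlations describe 11 points that share controls and scaling, and no test was made. The ranking for *Gadd45g* draws on the *Rbpj*-mutant conditions by which the family was chosen, so it favors genes that are also low there.

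Genes of the pathways around the family were taken from 6 lists. The part of these genes in the levels of the members was not tested. The kinases that GADD45 proteins act on are MAP3K4, the MAP2Ks below it and the JNK and p38 kinases. At N16h in RGd2, 1 of the 9 measured kinases was called higher and 5 lower, with a median log2 fold change of −0.33 against −0.23 for all genes (with TMM, 2 and 4). Of all genes, 8.63% were called higher there and 37.4% lower. *Map3k4*, the direct partner of GADD45 proteins, fell by 0.52 on the log2 scale (SE 0.11) and *Map2k6*, a p38 activator, fell by 2.34 (SE 0.18), whereas *Mapk12*, encoding p38γ, rose by 1.31 (SE 0.25). In *Rbpj*-KO against RGd2 at N16h, where 22.2% of all genes were called (18.8% higher, 3.41% lower; with TMM the share of higher genes among those called moved from 84.6% to 57.8%), 5 of 9 kinases were called higher and 0 lower (with TMM, 4 and 0), among them *Map2k6* with 0.85 (SE 0.19) and *Map3k4* with 0.39 (SE 0.10). In *Etv5*-KO against RGd2 at N16h, 4 of 10 were called higher and 0 lower (with TMM, 2 and 1), where 29.3% of all genes were higher, with *Map2k3* at 0.72 (SE 0.12). At N72h, 6 of 11 kinases were called higher and 1 lower (with TMM, 6 and 3), where 34.2% of all genes were higher and 22.9% lower, and the p38 genes *Mapk12* and *Mapk11* rose by 4.63 (SE 0.23) and 3.50 (SE 0.30).

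At N16h in RGd2, 8.63% of all genes were called higher and 37.4% lower. The cell cycle proteins that bind GADD45 proteins gave 0 higher and 1 lower of 5 there (with TMM, 3 higher and 1 lower). The lower gene was *Cdkn1a*, which encodes the CDK inhibitor p21 and is a p53 target like *Gadd45a*. It went from a mean normalized count of 1681 to 243, a log2 fold change of −2.79 (SE 0.16, edgeR adjusted p = 5.61e-18). *Cdkn1a* was also lower at N16h within *Etv5*-KO, with −2.87 (SE 0.18), and within *Rbpj*-KO, with −2.64 (SE 0.16). The part of p53 in the change of *Gadd45a* was not tested. Of the p53 targets 20 were measured at N16h in RGd2, with a median of −0.19. Of these 1 was called higher and 8 lower (with TMM, 5 and 6), shares close to the 8.63% and 37.4% of all genes. The higher one was *Pmaip1*, which encodes the BH3 protein NOXA, with 2.04 (SE 0.21), and *Phlda3* and *Btg2* were lower, with −1.37 (SE 0.12) and −1.04 (SE 0.14). In *Rbpj*-KO against RGd2 at N16h, 8 of 20 p53 targets were called higher and 1 lower (with TMM, 5 and 2), where 18.8% of all genes were higher, and *Perp* and *Pmaip1* led with 2.21 (SE 0.20) and 2.08 (SE 0.16). In ETR-tKO against RGd2 2i-p5, 17 of 20 were called higher and 1 lower, *Cdkn1a* (with TMM, 13 and 2), against 47.3% of all genes called, 37.7% higher and 9.53% lower (with TMM the share of higher genes among those called moved from 79.8% to 47.5%), with a median of 0.65 against 0.23 for the genes past the FPKM minimum. *Pmaip1*, *Perp* and *Bbc3* were higher there by 4.22 (SE 0.18), 3.85 (SE 0.20) and 1.87 (SE 0.20). In ER-dKO, where 42.4% of genes were called, 33.9% higher and 8.43% lower (with TMM the share of higher genes among those called moved from 80.1% to 52.7%), 3 of 20 were higher and 5 lower (with TMM, 3 and 10), and *Pmaip1* was higher by 5.16 (SE 0.19).

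Of the DNA demethylation and repair factors, 1 of 16 was called higher and 4 lower at N16h in RGd2 (with TMM, 5 and 1). Of all genes, 8.63% were called higher there and 37.4% lower. *Tet1*, which encodes a 5-methylcytosine dioxygenase, rose by 0.94 (SE 0.14) and *Apobec2* fell by 1.46 on the log2 scale (SE 0.21). *Tet1* also rose in *Rbpj*-KO and *Etv5*-KO after 2i withdrawal, by 1.01 (SE 0.14) and 1.28 (SE 0.15). At N72h 6 of 17 were called higher and 4 lower (with TMM, 6 and 8), shares close to the 34.2% and 22.9% of all genes, with *Tet2* at −2.70 (SE 0.13) and *Tet3* at 1.74 (SE 0.15). Of the genes of the integrated stress response, 1 of 13 was called higher and 4 lower at N16h in RGd2 (with TMM, 3 and 2). The shares of all genes were again 8.63% and 37.4%. *Asns* was at −1.16 (SE 0.11) and *Xbp1* at 0.73 (SE 0.12). Against RGd2 N16h, 8 of 14 were called higher and 0 lower in *Rbpj*-KO (with TMM, 7 and 1), where 18.8% of all genes were higher. In *Etv5*-KO 9 of 13 were higher and 0 lower (with TMM, 6 and 0), where 29.3% of all genes were higher. At N72h 10 of 15 were called higher and 2 lower (with TMM, 10 and 3), where 34.2% of all genes were higher, and *Atf3* and *Chac1* rose by 4.47 (SE 0.30) and 2.64 (SE 0.15). In CHp2 10 of 15 were called higher and 4 lower (with TMM, 8 and 4), where 28.6% of all genes were higher and 13.6% lower, with *Atf3* at 5.57 (SE 0.30).

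Of the transcription factors known to act on *Gadd45* genes, 3 of 13 were called higher and 5 lower at N16h in RGd2 (with TMM, 4 and 3). Among all genes, 8.63% were higher there and 37.4% lower. *Myc*, which represses *Gadd45a* in other cells, rose by 1.55 (SE 0.16), *Foxo1* rose by 0.74 (SE 0.14) and *Smad3* fell by 1.29 on the log2 scale (SE 0.12). Their part in the change of *Gadd45a* was not tested. In *Etv5*-KO N16h against RGd2 N16h 9 of 13 were called higher and 0 lower (with TMM, 8 and 1), where 29.3% of all genes were higher and 3.24% lower, and *Nfkb1*, which encodes the NF-κB subunit p105/p50, was higher by 0.72 (SE 0.12) and *Rela* by 0.58 (SE 0.14). In *Rbpj*-KO N16h against RGd2 N16h 6 of 13 were called higher and 1 lower (with TMM, 5 and 1), where 18.8% of all genes were higher, with *Nfkb1* at 0.73 (SE 0.11) and *Smad3* at 0.71 (SE 0.12). In *Rbpj*-KO 2i against RGd2 2i, 2 of 13 factors were called higher and 1 lower (with TMM, 3 and 0), and 0 of 8 kinases were called. Of all genes 11.4% were called, 5.24% as higher and 6.12% as lower, and TMM moved the share of higher genes among those called from 46.1% to 59.1%.

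**Figure D5:**
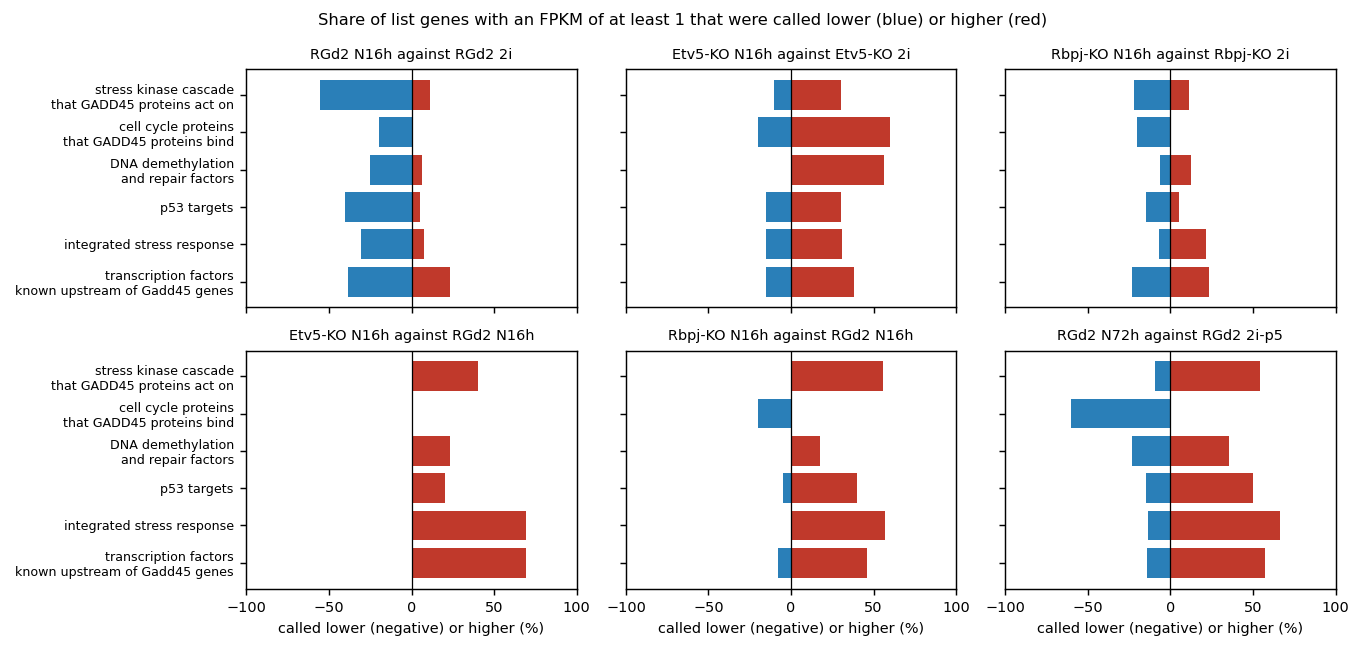
Share of the genes of 6 lists with an FPKM of at least 1 that were called higher (positive, red) or lower (negative, blue) in 6 comparisons, in percent. The integrated stress response list has 9 of 13 genes higher in *Etv5*-KO N16h and 8 of 14 in *Rbpj*-KO N16h against RGd2 N16h, and 1 of 13 higher in RGd2 after withdrawal of 2i, where 29.3%, 18.8% and 8.63% of all genes were higher (with TMM, 6, 7 and 3 genes of the list).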

How the data were processed

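Conditions came from the sample labels. The authors removed ribosomal RNA and sequenced strand-specific libraries with ERCC spike-ins as read pairs. After Trim Galore, reads were mapped by TopHat2 (GRCm38/mm10), and featureCounts gave the unique fragments per gene, deposited by the authors as raw counts. Tool versions are not given in the sources used here. The labels give *Etv5*-KO N16h 2 libraries, whereas the methods of the study name RGd2 N16h as the group with 2 replicates, and the labels were followed. The members and the gene lists were chosen with earlier results of these data known.

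Libraries were scaled by median-of-ratios factors from 52 of 92 spike-ins, and FPKM and log2 values were computed here from the counts deposited by the authors. The 18892 genes that passed filterByExpr were tested two-sided with edgeR 4.0.16 (glmQLFit, glmQLFTest) in R 4.3.3, in 1 model with a term for each of 11 conditions over the 32 libraries, followed by Benjamini-Hochberg adjustment. Called genes had an adjusted p below 0.05 and reached a mean FPKM of 1 in a group compared. Gene IDs without a symbol numbered 193 and held 0.0259% of the counts. Depth ranged from 5986857 to 71439411 counts on genes, and spike-in counts from 1.00% to 1.54% of the counts on genes. Chi-square per gene between replicates ran from 3.39 to 44.3 and would be near 1 with counting error alone. Replicate libraries thus differed beyond that error. The p-values rest on a spread pooled over the 11 conditions. That spread lies between clonal lines in the mutants, and between cultures of the parental line and 1 clonal line in RGd2. On simulated data 175 of 200 genes changed 2-fold and 198 of 200 genes changed 4-fold were recovered for RGd2 N16h against RGd2 2i. Unchanged genes called numbered 7 and 15. The simulation gave every gene the same relative spread between replicates and left out genes of low mean count. It fitted only the libraries compared and held no outlying library, so these rates need not hold for the measured data. Clonal lines occur in both 2i and N16h, which pairs those libraries. The correlation of their deviations was 0.0475, 0.0475 and 0.157 for *Rbpj*-KO c28, c33 and c36, and 0.0225 and −0.0162 for *Etv5*-KO c17 and c1. Named list genes were the 4 called genes of a list with the largest log2 fold change without overlap, and at least 10 counts in a library, and the text gives a part of them. Likeness was the Pearson correlation over 11 condition means of log2(normalized count + 1). Promoter sequences are from RefSeq, with all 3 members matched by symbol, and coding sequences from GENCODE M21. Alternatives were TMM, median-of-ratios size factors on genes, total spike-in counts, DESeq2 1.42.0, no low-count filter, no FPKM minimum, a model of only the libraries compared, the clonal line as replicate block, and leaving out each library. The sum over the neural markers is not reported here. Figures were drawn with matplotlib 3.10.9 in Python 3.11.15.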

Additional observations from a re-analysis of the deposited data

Results flagged for a closer look

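The response of *Gadd45b* to 2i withdrawal differed between *Etv5*-KO and RGd2 by a test of the difference itself, 1.67 on the log2 scale (standard error 0.20, edgeR quasi-likelihood adjusted p = 3.67e-08). All 3 RGd2 N16h libraries were below all RGd2 2i libraries, and both *Etv5*-KO N16h libraries were below all *Etv5*-KO 2i libraries, so the direction was shared and the size was not. Over 18 alternatives the difference was between 1.23 and 1.76, with adjusted p between 5.28e-15 and 7.67e-06. For *Gadd45a* and *Gadd45g* the same test did not pass.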

How the results depend on the processing

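Of 26 tested results of the members, 17 kept their direction and their side of the threshold under every alternative, and 335 of 364 alternatives did. With TMM and with median-of-ratios size factors on the genes, *Gadd45b* in CHp2 against 2i-p5 turned negative (−0.16 and −0.12), the call for *Gadd45b* in 2i-p5 against 2i was lost (−0.27 and −0.28), and *Gadd45a* (−0.40 and −0.41) and *Gadd45g* (−0.78 and −0.79) passed in *Etv5*-KO N16h against RGd2 N16h. The differences of response, *Etv5*-KO less RGd2, turned negative for *Gadd45a* (−0.36 and −0.36) and *Gadd45g* (−0.11 and −0.11). With the same 2 scalings, described values moved to −0.54 and −0.55 for *Gadd45a* in *Rbpj*-KO N16h, to 1.14 and 1.13 for *Gadd45a* and −0.94 and −0.95 for *Gadd45b* in ER-dKO, and to 1.73 and 1.75 for *Gadd45a* and −0.61 and −0.59 for *Gadd45b* in ETR-tKO. These shifts are those of the median of all genes. *Gadd45g* in *Etv5*-KO N16h against RGd2 N16h also passed without the low-count filter (−0.54) and in a model of only the libraries compared (−0.55). The call for *Gadd45b* within *Etv5*-KO was lost with total spike-in counts (−0.35), without the low-count filter (−0.38) and with the clonal line as replicate block (−0.36), and the block changed no other call of the members in the 6 comparisons within a genotype, where alone it was run. DESeq2 ended the call for *Gadd45g* in *Etv5*-KO 2i (−0.86). For these other settings the cause was not tested.

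Leaving out 1 library at a time, *Gadd45b* in CHp2 against 2i-p5 lay between −0.11 and 0.19 (with −0.02 without RGd2 2i-p5 replicate 1, −0.11 without CHp2 replicate 4 and −0.0025 without CHp2 replicate 5), *Gadd45a* in *Etv5*-KO 2i between −0.49 and −0.17, *Gadd45g* there between −1.09 and −0.70, *Gadd45b* within *Etv5*-KO between −0.40 and −0.36, and *Gadd45g* in ETR-tKO between −3.19 and −1.41. A lone *Etv5*-KO N16h library was then assumed to vary like the other groups.

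The number of all genes called depended on the setting, higher and lower in turn, with the range over the alternatives in brackets. It was 1014 (686 to 2777) and 4388 (2452 to 5658) in RGd2 N16h, 4189 (3687 to 5753) and 2802 (2379 to 4275) at N72h, 3450 (2686 to 5041) and 1635 (1352 to 3517) in CHp2, and 334 (189 to 1577) and 5709 (1410 to 7192) in 2i-p5 against 2i. For *Etv5*-KO it was 710 (434 to 2097) and 3227 (1294 to 5017) in 2i, 3437 (1612 to 4627) and 380 (195 to 1541) at N16h, 3698 (2086 to 4992) and 1120 (723 to 2949) within the genotype, and 4499 (1044 to 7133) and 65 (44 to 567) for the difference. For *Rbpj*-KO it was 605 (302 to 1258) and 707 (333 to 1533) in 2i, 2205 (1471 to 3377) and 400 (292 to 1369) at N16h, and 1363 (1083 to 2200) and 1917 (1408 to 2622) within the genotype. It was 3922 (2499 to 5425) and 975 (775 to 2404) in ER-dKO and 4459 (2794 to 5828) and 1126 (888 to 3089) in ETR-tKO. Depth limits *Gadd45g* in the *Rbpj* mutants, where libraries held from 1 to 39 fragments.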
